A study of Homo sapiens with 4 samples.

Results

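The histone cluster genes are the genes named HIST1 to HIST4, which encode the linker histone H1 and the core histones H2A, H2B, H3 and H4 and lie side by side in a large cluster on chromosome 6 and smaller ones on chromosome 1. Members were all genes whose name starts with HIST1H, HIST2H, HIST3H or HIST4H and does not contain PS, which gave 75 of the 58825 genes measured. They comprise 6 H1, 17 H2A, 22 H2B, 15 H3 and 15 H4 genes, of which 55 lie on chromosome 6, 19 on chromosome 1 and 1 on chromosome 12, and 5 are annotated as pseudogenes. A member was tested where its mean reached 1 FPKM, a fragment count scaled to transcript length and library size, in at least 1 group, and 21 members passed.

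The samples were HaCaT cells, an immortalised human keratinocyte line, grown in medium with 1.2 mM calcium. The 2 knockdown libraries came from cells given a lentivirus with a short hairpin RNA against lnc-DC (shlnc-DC), a long non-coding RNA listed in the table as WFDC21P. The 2 control libraries came from the same line given a lentivirus with a control hairpin (shNC), so all 4 had been exposed to a lentivirus. The labels call both libraries of a group biological replicates but name no separate transductions or cultures, so the p-values below speak only for how these 4 libraries vary. The labels give 1 hairpin name per group, and no second hairpin was analysed here. RNA was selected with oligo(dT), which takes transcripts with a poly(A) tail.

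Replication-dependent histone genes are transcribed mainly in S phase, when newly made DNA has to be packed. Their usual mRNA has no poly(A) tail and ends just after a conserved stem-loop, which is bound by the stem-loop binding protein SLBP, with U7 snRNP and a cleavage complex cutting the transcript there. Many of the same genes can also be cleaved further downstream at a poly(A) signal, and polyadenylated histone transcripts are known from differentiated and cultured cells. The values below therefore stand for the polyadenylated part of each gene's output, or for what oligo(dT) carried over, and the tail-less mRNA was not measured.

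The stem-loops of the tested members are shown first because they mark the end that oligo(dT) selection passes over. The pattern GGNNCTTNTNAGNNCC was searched on the transcript strand of the GENCODE 29 models, where N is any base, and was found in 17 of the 21 tested members and in 34 of all 75. It occurred in 0.164% of the 206587 transcripts of other genes. Members were counted by gene, with any of their models, and the other genes by single transcript, so the shares are not in like units. Capitals mark the 16 bases of the loop, and each window holds 30 bases of the spliced transcript.
HIST3H2A: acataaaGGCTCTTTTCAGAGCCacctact
HIST2H2BE: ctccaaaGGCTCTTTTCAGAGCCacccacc
HIST1H2AG: aaccaacGGCTCTTTTCAGGGCCacccacg
HIST1H2BD: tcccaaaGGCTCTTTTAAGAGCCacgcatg
HIST1H4H: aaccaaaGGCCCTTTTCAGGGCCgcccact
HIST2H4A: tcccaaaGGCCCTTTTTAGGGCCgaccact

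These lines cover the 5 versions of the loop found among tested members. The version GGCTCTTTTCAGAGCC was shared by 8 members of the H2A, H2B and H3 classes, among them HIST3H2A, HIST2H2BE, HIST2H2AA3 and HIST2H2AA4. HIST2H4A, HIST2H4B and HIST1H4I shared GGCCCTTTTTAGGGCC, HIST1H4H and HIST1H4J shared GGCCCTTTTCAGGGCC, HIST1H2BC and HIST1H2BD shared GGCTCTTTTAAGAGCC, and HIST1H2AG and HIST2H2BD shared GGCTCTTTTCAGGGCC.

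A poly(A) hexamer, AATAAA or ATTAAA on the transcript strand, stood within the last 50 bases of a model in 15 of the 21 tested members, against 31.3% of the transcripts of other genes. Here too members were counted by gene, with any of their models, and the other genes by single transcript. A model with the stem-loop and a model with such an end, the same or another, were present for 14 tested members. Capitals mark the hexamer in the windows of 4 members that differ in how far the end lies from the loop.
HIST3H2A: gatttatctgatATTAAAagtatttatgat
HIST2H2BE: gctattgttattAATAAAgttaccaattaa
HIST2H2AA3: cccacgttttcaAATAAAagagttgttaat
HIST1H4J: tccctttctatcAATAAAaggcccttttca

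In HIST2H2BE, an H2B gene, the stem-loop lay 56 bases after the stop codon and the model ran 1729 bases past the loop. In HIST3H2A, an H2A gene, the model ran 390 bases past it, and in HIST2H2AA3 35 bases. In HIST1H4J the hexamer lay before the loop, and the model ended 6 bases after the loop. HIST1H2BK, HIST1H4K and HIST1H1C had models of coding length only, without untranslated regions, so their loops could not be looked for. Among all members, 32 had such coding-only models, and 11 of these were listed at 0 FPKM in all 4 libraries, against 1 of the 34 members with a stem-loop in a model. FPKM is scaled to transcript length, and the annotation behind the submitters' values is not given. For HIST1H2BK the GENCODE model has 381 bases. RefSeq gives the gene a span of 8566 bases on the genome, which is not a spliced length, so the 2 cannot be compared directly. The order of levels between genes therefore holds only for the models the submitters used, which are not known here.

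**Figure D1:**
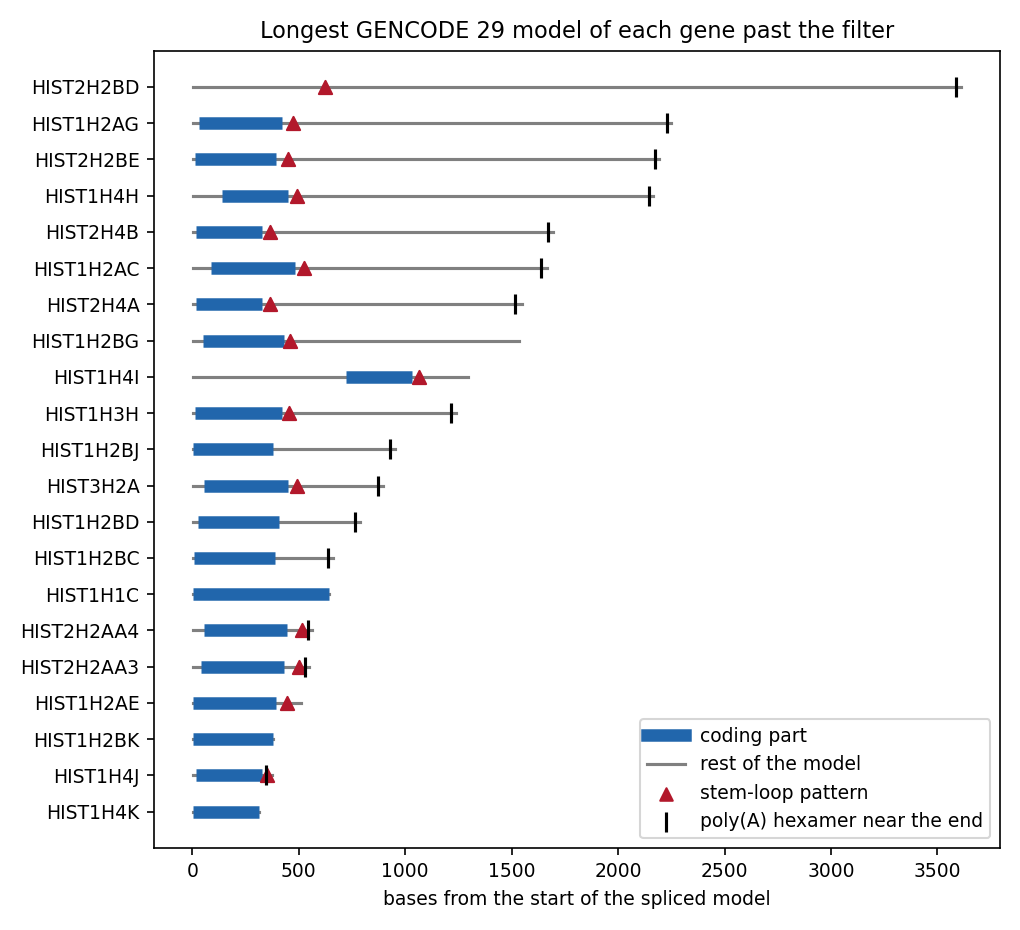
The longest GENCODE 29 model of each of the 21 tested members, drawn to scale in bases from the start of the spliced transcript (x axis), with the coding part in blue, the stem-loop as a triangle and a poly(A) hexamer within the last 50 bases as a tick. In most models the loop sits just after the coding part and the model runs on beyond it; the loops of HIST1H2BC and HIST1H2BD lie in shorter models not drawn, and HIST1H2BK, HIST1H4K and HIST1H1C have a coding part only.

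The promoters of 4 members with a higher mean in knockdown cells follow, since histone genes carry promoter elements by class. A promoter of 300 bases, 250 before and 50 after the start, was matched in RefSeq (GRCh38.p14) for 65 of 75 members and 20 of the 21 tested. Capitals mark the octamer ATTTGCAT, known as the element of H2B promoters, the TATA box TATAAA and the CCAAT box CCAAT, each searched on both strands. The windows are chr6:27146809-27147108 for HIST1H2BK, chr1:149886633-149886932 for HIST2H2BE, chr6:26216639-26216938 for HIST1H2BG and chr1:228457824-228458123 for HIST3H2A, all on the minus strand.
HIST1H2BK: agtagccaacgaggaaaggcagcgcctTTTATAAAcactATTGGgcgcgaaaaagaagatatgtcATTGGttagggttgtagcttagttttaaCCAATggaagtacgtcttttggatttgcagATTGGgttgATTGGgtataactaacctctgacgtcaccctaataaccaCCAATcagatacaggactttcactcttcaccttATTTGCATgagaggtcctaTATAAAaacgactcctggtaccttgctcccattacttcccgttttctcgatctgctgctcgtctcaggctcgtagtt
HIST2H2BE: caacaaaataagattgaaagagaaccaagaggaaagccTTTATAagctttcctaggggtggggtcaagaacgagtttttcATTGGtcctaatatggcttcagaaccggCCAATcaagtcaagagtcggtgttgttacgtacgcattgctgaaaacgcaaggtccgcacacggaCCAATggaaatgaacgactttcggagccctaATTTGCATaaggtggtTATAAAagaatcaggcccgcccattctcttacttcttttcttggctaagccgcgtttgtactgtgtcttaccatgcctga
HIST1H2BG: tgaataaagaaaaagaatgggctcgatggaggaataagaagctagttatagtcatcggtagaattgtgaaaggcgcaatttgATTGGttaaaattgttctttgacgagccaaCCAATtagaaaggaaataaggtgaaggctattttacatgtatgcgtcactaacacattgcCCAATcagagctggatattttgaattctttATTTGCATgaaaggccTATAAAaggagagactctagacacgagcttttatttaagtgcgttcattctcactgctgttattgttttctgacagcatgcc
HIST3H2A: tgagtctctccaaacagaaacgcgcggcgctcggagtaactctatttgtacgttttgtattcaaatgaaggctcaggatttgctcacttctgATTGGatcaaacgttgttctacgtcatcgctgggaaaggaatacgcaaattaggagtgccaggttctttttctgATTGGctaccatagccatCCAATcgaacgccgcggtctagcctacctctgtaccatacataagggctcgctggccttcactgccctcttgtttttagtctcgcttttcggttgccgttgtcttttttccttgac

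The octamer was present in the windows of 26 of the 65 matched members, 11 of 16 H2A, 14 of 18 H2B and 1 of 12 H3 genes, and in 1.8% of the 27305 promoters of the table. In HIST1H2BK and HIST2H2BE it began 46 bases before the start, and in HIST1H2BG 48 bases before it. The promoter of HIST3H2A held no octamer and no TATAAA, and a match or its absence describes these letters only. The TATAAA letters were found in 43 matched members against 12.0% of all promoters, and CCAAT in 55 against 35.7%. In HIST1H2BK a forward and a reverse TATAAA match overlapped far upstream. H2A and H2B genes often face each other across a short stretch, and the 26 windows held 17 distinct octamers, 7 of which fell in the windows of 2 members and 1 in those of 3. That 1 lies in the only H3 window with an octamer, HIST1H3D, whose listed window is the same as that of the H2A gene HIST1H2AD.

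In all 4 libraries together the histone cluster transcripts were few. Of the 75 members, 16 were listed at 0 FPKM in every library and 38 were above 0 in at least 1 library without reaching a mean of 1 FPKM in a group. The members just past that limit were HIST1H2BJ, with a knockdown mean of 1.01 FPKM, and HIST1H2BG, with 1.08 FPKM. Just under it were HIST2H2AC, with a control mean of 0.82 FPKM, and HIST1H2AI, with a knockdown mean of 0.80 FPKM. By mean over the 4 libraries HIST1H2BK stood highest at 24.8 FPKM, followed by HIST3H2A at 12.4, HIST1H1C at 9.27, HIST1H2BD at 5.00, HIST2H2BD at 3.09 and HIST1H2AC at 3.04 FPKM. The values of HIST1H2BD in single libraries overlapped with those of HIST2H2BD and HIST1H1C, while HIST1H2BK stood above every other member in all 4 libraries.

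**Figure D2:**
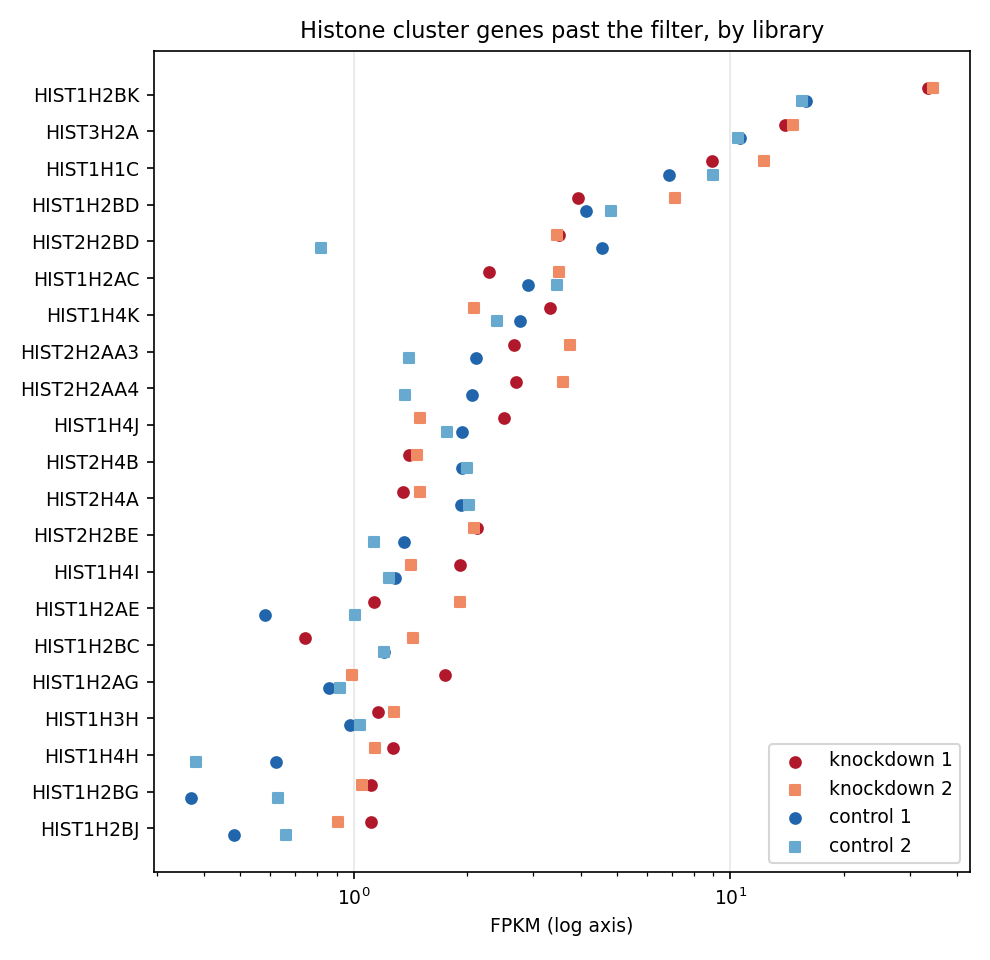
FPKM of the 21 tested members in each library (x axis, log scale), ordered by mean, with knockdown libraries in red above control libraries in blue. HIST1H2BK shows the widest distance between the groups in FPKM, at 33.4 and 34.4 in knockdown against 15.9 and 15.5 in control, and HIST2H2BD has 1 control library at 0.82 FPKM far below the other 3.

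With lnc-DC knocked down, none of the 21 tested members passed the test after adjustment over all genes, and most had a higher mean than in control cells. The test was limma on log2(FPKM + 1) over 12411 genes, adjusted by Benjamini-Hochberg, and a gene was called at an adjusted p under 0.05. It called 0 of 21 members, against 0.25% of all tested genes in either direction. At an unadjusted p under 0.05 there were 7 members with a higher and 0 with a lower level in knockdown cells, which is 33.3% of members for the higher side, against 14.8% of all tested genes on the higher and 8.0% on the lower side. The 2 knockdown libraries lay above both control libraries without overlap in 12 members, or 57.1%, against 35.6% of all tested genes, and below both in 2 members, against 19.2%. Among the 12, HIST1H2BJ, HIST1H2BG, HIST1H4H, HIST1H2AE and HIST1H2AG passed the filter by their knockdown mean only. Their control means were 0.57, 0.50, 0.50, 0.795 and 0.89 FPKM. Passing in this way favours the higher side in this count, in that by unadjusted p and in those of log2 differences above 0. How many of all tested genes passed in this way was not counted. With 2 libraries against 2, an exact two-sided permutation test of a single value cannot give a p below 0.33.

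The log2 difference was above 0 in 17 of the 21 members and below 0 in 4, against 61.4% of all tested genes above and 38.6% below 0. The median difference was 0.36 over the members and 0.09 over all tested genes. Centring the libraries on their medians left 15 of 21 above 0, with HIST1H4J and HIST1H4K turned to below 0, and rescaling the nuclear genes left 15 of 20, with HIST1H4K turned. The 14 members with an unadjusted p of 0.05 or more had limma adjusted p of 0.284 to 0.946 (Benjamini-Hochberg). Members that share sequence are not independent: HIST2H2AA3 and HIST2H2AA4, HIST2H4A and HIST2H4B, and HIST1H4J and HIST1H4K are near-identical pairs, described below.

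The H2B genes held the member with the highest level. HIST1H2BK encodes a replication-dependent H2B at chr6:27146418-27146798 on the minus strand (GENCODE 29, GRCh38). It had 33.4 and 34.4 FPKM in the knockdown libraries, against 15.9 and 15.5 FPKM in the control libraries. Both knockdown libraries were thus above both control libraries, and the libraries within a group lay close together. Its mean was 33.9 ± 0.757 FPKM in knockdown cells and 15.7 ± 0.318 FPKM in control cells (SD, n = 2 each), a ratio of 2.16. The difference on the log2(FPKM + 1) scale was 1.06 with an SE of 0.10, and limma's Benjamini-Hochberg adjusted p was 0.0533, just above the threshold. That p ran from 0.0391 to 0.255 over the alternatives tried, and it passed only with genes restricted to a mean of at least 5 FPKM, at 0.0391. Leaving out single libraries gave differences from 1.04 to 1.09.

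HIST2H2BE encodes another H2B. It had 2.12 and 2.08 FPKM in knockdown libraries, against 1.36 and 1.13 FPKM in control libraries. The groups did not overlap, and its log2 difference was 0.47 with an SE of 0.143 and a limma adjusted p of 0.161 (Benjamini-Hochberg). HIST1H2BG, also H2B, had 1.11 and 1.05 FPKM in knockdown libraries, against 0.37 and 0.63 FPKM in control libraries. These groups did not overlap either, with a log2 difference of 0.48, or 1.01 with a pseudocount of 0.1, and a limma adjusted p of 0.212 (Benjamini-Hochberg). HIST1H2BJ had 1.11 and 0.91 FPKM in knockdown libraries, against 0.48 and 0.66 FPKM in control libraries, a log2 difference of 0.36, or 0.74 with a pseudocount of 0.1.

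The other 3 H2B members had groups that overlapped. HIST1H2BD, the H2B gene with the next highest level, had 3.93 and 7.12 FPKM in knockdown libraries, against 4.14 and 4.81 FPKM in control libraries. Its log2 difference of 0.21 turned to -0.15 without knockdown replicate 2. HIST2H2BD, an H2B pseudogene, had 3.51 and 3.46 FPKM in knockdown libraries, against 4.55 and 0.82 FPKM in control libraries. Control replicate 2 was far below the other 3 libraries, and the log2 difference of 0.50 turned to -0.31 without it. HIST1H2BC had 0.74 and 1.44 FPKM in knockdown libraries, against 1.20 FPKM in each control library, and its log2 difference of -0.09 turned to 0.15 without knockdown replicate 1.

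Among the H2A genes HIST3H2A had the highest level. It had 13.95 and 14.7 FPKM in knockdown libraries, against 10.6 and 10.5 FPKM in control libraries. Both knockdown libraries were above both control libraries. The means were 14.3 ± 0.509 FPKM in knockdown cells and 10.6 ± 0.0778 FPKM in control cells (SD, n = 2 each), and the log2 difference was 0.41 with an SE of 0.103 and a limma adjusted p of 0.127 (Benjamini-Hochberg).

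HIST2H2AA3 and HIST2H2AA4 encode the same kind of H2A in a duplicated segment of chromosome 1. HIST2H2AA3 had 2.67 and 3.76 FPKM in knockdown libraries, against 2.11 and 1.40 FPKM in control libraries. HIST2H2AA4 had 2.70 and 3.60 FPKM in knockdown libraries, against 2.06 and 1.37 FPKM in control libraries. Of their 150-base windows, the length of a read, all of those of HIST2H2AA3 and 96.4% of those of HIST2H2AA4 occur in another gene, so how reads were divided between them cannot be told from the table. Their sum was 5.37 and 7.36 FPKM in knockdown libraries, against 4.17 and 2.77 FPKM in control libraries, without overlap. Limma's adjusted p was 0.191 for HIST2H2AA3 and 0.177 for HIST2H2AA4 (Benjamini-Hochberg).

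The remaining tested H2A members were HIST1H2AE, HIST1H2AG and HIST1H2AC. HIST1H2AE had 1.13 and 1.91 FPKM in knockdown libraries, against 0.58 and 1.01 FPKM in control libraries. HIST1H2AG had 1.75 and 0.99 FPKM in knockdown libraries, against 0.86 and 0.92 FPKM in control libraries. Both lay without overlap above control, by log2 differences of 0.48 and 0.31. The difference of HIST1H2AE was 0.26 without knockdown replicate 2 and 0.31 without control replicate 1. That of HIST1H2AG was 0.54 without knockdown replicate 2, and without knockdown replicate 1 the gene did not pass the filter. HIST1H2AC had 2.29 and 3.50 FPKM in knockdown libraries, against 2.90 and 3.47 FPKM in control libraries, and its log2 difference of -0.12 turned to 0.11 without knockdown replicate 1.

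The H4 genes did not share a direction. HIST1H4H had 1.27 and 1.14 FPKM in knockdown libraries, against 0.62 and 0.38 FPKM in control libraries, a log2 difference of 0.56 with an SE of 0.175 and a limma adjusted p of 0.167 (Benjamini-Hochberg). Its ratio of means was 2.41, above the 2.16 of HIST1H2BK, and with a pseudocount of 0.1 its log2 difference was 1.15 against 1.11 for HIST1H2BK. HIST2H4A had 1.35 and 1.5 FPKM in knockdown libraries, against 1.93 and 2.02 FPKM in control libraries. HIST2H4B had 1.40 and 1.47 FPKM in knockdown libraries, against 1.94 and 2.00 FPKM in control libraries. These 2 were the members whose knockdown libraries lay below both control libraries.

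HIST2H4A and HIST2H4B are copies of each other, with 92.2% and 97.0% of their 150-base windows present in another gene. Their sum was 2.75 and 2.97 FPKM in knockdown libraries, against 3.87 and 4.02 FPKM in control libraries, a ratio of 0.725. The log2 differences were -0.30 and -0.29, with limma adjusted p of 0.284 and 0.286 (Benjamini-Hochberg). Exons of each overlap a histone H3 gene on the opposite strand, HIST2H3C for HIST2H4A and HIST2H3A for HIST2H4B, and the strand setting of the counting is not given in the sources used here.

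HIST1H4K had 3.32 and 2.09 FPKM in knockdown libraries, against 2.77 and 2.4 FPKM in control libraries. HIST1H4J had 2.51 and 1.5 FPKM in knockdown libraries, against 1.94 and 1.77 FPKM in control libraries. In both genes knockdown replicate 1 was the highest and knockdown replicate 2 the lowest of the 4, and all windows of HIST1H4K and 72.8% of those of HIST1H4J occur in another gene. Their log2 differences of 0.03 and 0.05 turned to -0.21 and -0.19 without knockdown replicate 1, and that of HIST1H4K to -0.05 without control replicate 2. HIST1H4I had 1.91 and 1.42 FPKM in knockdown libraries, against 1.29 and 1.24 FPKM in control libraries, a log2 difference of 0.23 that was 0.096 without knockdown replicate 1 and 0.36 without knockdown replicate 2.

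The linker histone and H3 classes had 1 tested member each. HIST1H1C, which encodes a linker histone that binds between nucleosomes, had 8.96 and 12.25 FPKM in knockdown libraries, against 6.87 and 8.98 FPKM in control libraries. Knockdown replicate 1 and control replicate 2 were level, so the groups overlapped, and the log2 difference was 0.37 with a limma adjusted p of 0.343 (Benjamini-Hochberg). It was 0.17 without knockdown replicate 2, 0.20 without control replicate 1 and 0.58 without knockdown replicate 1. HIST1H3H had 1.16 and 1.28 FPKM in knockdown libraries, against 0.98 and 1.04 FPKM in control libraries. Its groups did not overlap, and its log2 difference was 0.14.

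By class, 6 of 7 tested H2B genes and 5 of 6 H2A genes had a log2 difference above 0, with medians of 0.47 and 0.44. Of the 6 tested H4 genes 4 were above 0, with a median of 0.04, and this became 2 of 6 with a median of -0.04 after median centring and 3 of 6 after rescaling the nuclear genes. HIST1H2BJ, HIST1H2BG, HIST1H2AE, HIST1H2AG and HIST1H4H, all above 0, passed the filter by their knockdown mean only. The differences between the classes were not tested.

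**Figure D3:**
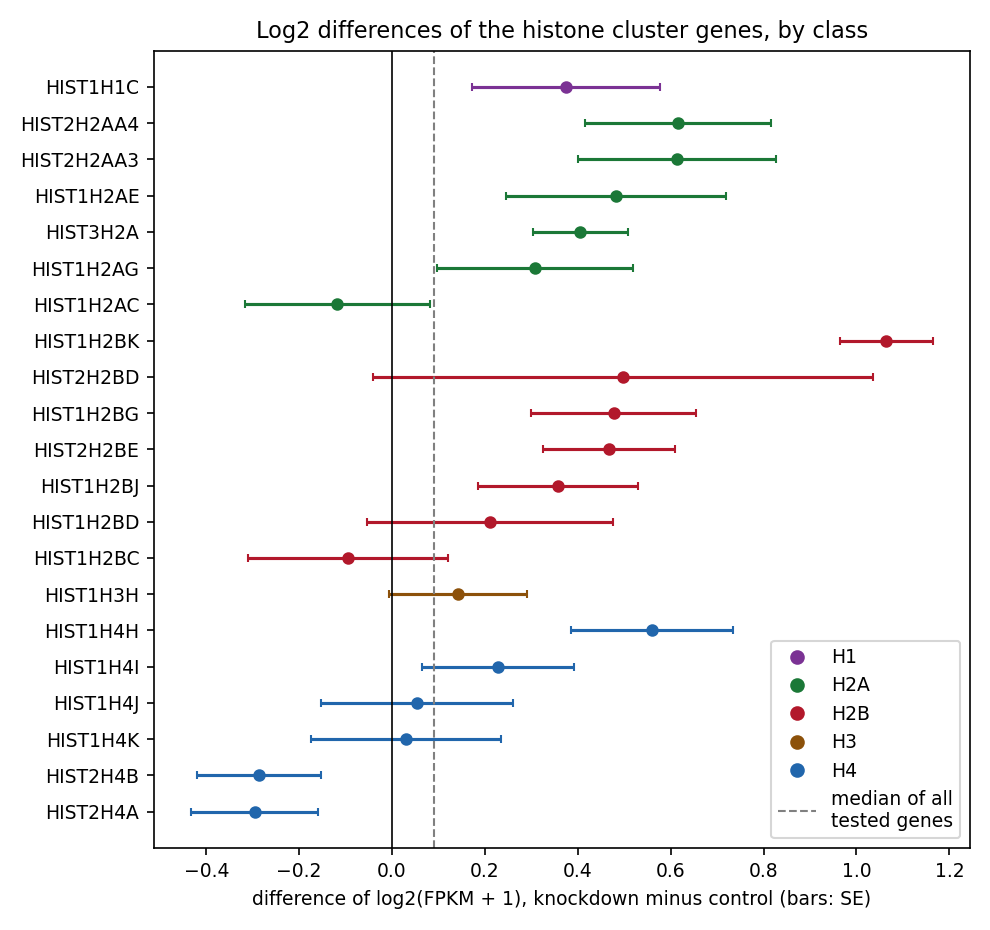
Difference of log2(FPKM + 1), knockdown minus control (x axis), for the 21 tested members by histone class, with bars of 1 SE from the limma fit and the median of all tested genes as a dashed line. HIST1H2BK stands farthest right at 1.06, an order that holds at this pseudocount but not at 0.1, where HIST1H4H is higher, and HIST2H4A farthest left at -0.30, and the H4 genes lie on both sides of 0, where HIST1H4J and HIST1H4K change side with the scaling.

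Summed over all 75 members, the histone cluster genes had 101.7 and 112.4 FPKM in knockdown libraries, against 72.7 and 69.8 FPKM in control libraries. The means were 107.1 ± 7.53 FPKM in knockdown cells and 71.2 ± 2.00 FPKM in control cells (SD, n = 2 each), a ratio of 1.5. HIST1H2BK made up 32.8% and 30.6% of the sum in knockdown libraries, against 21.9% and 22.2% in control libraries, and without it the ratio was 1.32. The H2B sum was 49.4 and 53.7 FPKM in knockdown libraries, against 30.7 and 26.6 FPKM in control libraries. The H2A sum was 26.9 and 31.3 FPKM in knockdown libraries, against 20.8 and 21.0 FPKM in control libraries. The H3 sum was 3.81 and 5.24 FPKM in knockdown libraries, against 3.06 and 2.68 FPKM in control libraries. None of these 3 sums overlapped between the groups, while those of H1 and H4 did. The H4 sum was 12.6 and 9.61 FPKM in knockdown libraries, against 10.8 and 10.2 FPKM in control libraries. In RNA from whole cultures, a change in the number of cells expressing a gene and a change in RNA per cell cannot be told apart.

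**Figure D4:**
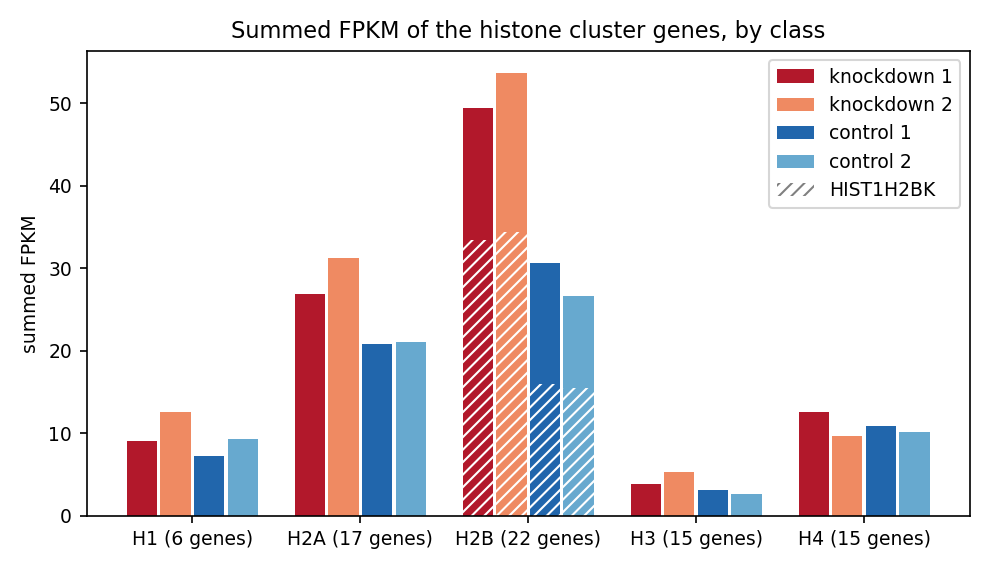
Summed FPKM of all members of each histone class (y axis, from 0) in the 2 knockdown libraries and the 2 control libraries, with the part from HIST1H2BK hatched. The H2B, H2A and H3 sums do not overlap between the groups, the H1 and H4 sums do, and HIST1H2BK is more than any other single gene of the H2B sum in every library.

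The 38 members above 0 but under the filter had values up to 1.34 FPKM. Their sum was 9.48 and 10.8 FPKM in knockdown libraries, against 7.17 and 6.6 FPKM in control libraries. Both knockdown libraries were above both control libraries in 14 of the 38 and below both in 5, against 23.0% and 16.1% of the 27624 genes above 0 in any library. Those 27624 include the 12411 genes past the filter, where the shares were 35.6% and 19.2%. The shares among genes under the filter alone are therefore lower than 23.0% and 16.1%. Among the 38 members the knockdown mean was higher in 26 and lower in 12. There were 7 members listed at 0 in both control libraries and 6 listed at 0 in both knockdown libraries, and no fold is given for these. In the authors' deposited table, 13 members have a log2 fold beyond 5 in size, from -10.49 to 11.6. All 13 were listed at 0 in both libraries of a group, and their highest FPKM in any library was 0.50.

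Histone genes that face each other across a short stretch are set side by side next. There were 13 such pairs with at most 1000 bases between their starts, and 7 held a tested member. Partners outside the 21 are named here for their position, after their values were seen. HIST1H2BK faces HIST1H2AH across 330 bases, and HIST1H2AH was listed at 0 in both knockdown libraries, against 0.16 and 0.13 FPKM in control libraries. HIST3H2A faces HIST3H2BB across 233 bases, and HIST3H2BB had 0.43 and 0.63 FPKM in knockdown libraries, against 0.62 and 0.34 FPKM in control libraries. HIST2H2BE faces HIST2H2AC across 322 bases, and HIST2H2AC had 0.31 and 0.94 FPKM in knockdown libraries, against 0.30 and 1.34 FPKM in control libraries.

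In these 3 pairs the partner reached at most 1.34 FPKM in any library, while the knockdown libraries of the tested gene lay above both control libraries. In 4 pairs both genes were tested. HIST1H2BG and HIST1H2AE, 282 bases apart, share 1 octamer, and so do HIST1H2BJ and HIST1H2AG, 291 bases apart. All 4 genes lay without overlap above control. They passed the filter by their knockdown mean only, which favours that side, and a part of the octamer was not tested. HIST1H2BC and HIST1H2AC, 218 bases apart with 1 shared octamer, both had overlapping groups. HIST2H2AA3 and the pseudogene HIST2H2BD are 138 bases apart, the first without overlap above control and the other with overlap.

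The targeted transcript WFDC21P had 0.09 and 0.29 FPKM in knockdown libraries, against 2.15 and 2.76 FPKM in control libraries, 12.9-fold lower by mean, with a log2 difference of -1.54 and a limma adjusted p of 0.0715 (Benjamini-Hochberg). The 4 libraries had 22351 to 22780 genes above 0, and Pearson correlations of log2 values were 0.968 to 0.971 within groups and 0.949 to 0.955 between them. Mitochondrial genes made up 28.1% and 26.8% of all FPKM in knockdown libraries, against 41.2% and 41.9% in control libraries. Of 12 keratinocyte markers 9 reached 1 FPKM, KRT14, KRT16 and KRT17 did not, and the summed level was 443.9 and 475.2 FPKM in knockdown libraries, against 788.1 and 823.0 FPKM in control libraries. KRT5 and SFN made up most of that sum. KRT5 had 123.7 and 156.1 FPKM in knockdown libraries, against 270.1 and 304.4 FPKM in control libraries. For SFN these were 167.3 and 173.6 against 292.5 and 318.0 FPKM. TP63, ITGB4, DSP and KRT16 overlapped between the groups, and the other markers were lower without overlap. Among markers of other cell types, 0 of 6 for fibroblasts, 0 of 4 for melanocytes, 2 of 5 for leukocytes (CD14 and CD68, with PTPRC at 0) and 1 of 3 for endothelium (CDH5) reached 1 FPKM. The part of the mitochondrial share and of the keratinocyte markers in the histone differences was not tested, beyond the rescaling of nuclear genes given above.

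Genes that act on histone transcripts or proteins were read from the same fit as 5 lists, and none of their members passed the threshold. The lists overlap, with SLBP among both the 3' end factors and the S phase genes. MCM2 is among both the chaperones and the S phase genes. Of the 12 tested histones listed as replication-independent and encoded elsewhere, 4 had a log2 difference above 0 and 8 below, with a median of -0.08. Under each of the other scalings 2 were above 0. Of all tested genes, 61.4% were above 0. H1F0, a linker histone of differentiated cells, had 89.3 FPKM in each knockdown library, against 139.1 and 146.8 FPKM in control libraries, a log2 difference of -0.67 with a limma adjusted p of 0.0836 (Benjamini-Hochberg). H1FX, another linker histone, differed by -0.55, H2AFY, which encodes macroH2A, by 0.36 and H2AFJ, an H2A variant, by -0.26. Of these 12 genes 1 was higher and 2 were lower at an unadjusted p under 0.05, against 14.8% and 8.0% of all tested genes. The linker histone genes HIST1H1C and H1F0 had log2 differences of opposite sign, with overlap between the groups for HIST1H1C.

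Of the 31 tested factors for the 3' end, the cap and the decay of histone mRNA, 25 were above 0 and 6 below, with a median of 0.26, and 24 were above 0 under each other scaling; of all tested genes, 61.4% were above 0. There were 9 with a higher and 0 with a lower level at an unadjusted p under 0.05, against 14.8% and 8.0% of all tested genes. CPSF2, a subunit of the cleavage complex, had 10.4 and 11.0 FPKM in knockdown libraries, against 7.12 and 6.95 FPKM in control libraries, a log2 difference of 0.54 with a limma adjusted p of 0.102 (Benjamini-Hochberg). CASP8AP2, a protein of the histone locus body, differed by 0.65, SNRPB, an Sm protein, by 0.40 and TUT7, a uridylyltransferase, by 0.48. SLBP had 40.2 and 39.8 FPKM in knockdown libraries, against 26.2 and 32.0 FPKM in control libraries, a log2 difference of 0.45; it is named for its role, after its values were seen.

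Of the 21 tested histone chaperones, 17 were above 0 and 4 below, with a median of 0.18, and 14 or 15 were above 0 under the other scalings. Over all tested genes, 61.4% were above 0. At an unadjusted p under 0.05, 7 were higher and 0 lower, against 14.8% and 8.0% of all tested genes. NAP1L4, a nucleosome assembly protein, differed by 0.62, the H3 variant chaperone DAXX by 0.47, MCM2, a helicase subunit that also binds H3 and H4, by 0.45 and the centromere chaperone HJURP by 0.45.

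Of the 30 S phase genes, 25 were above 0 and 5 below, with a median of 0.29, and 23 to 25 were above 0 under the other scalings. Over all tested genes, 61.4% were above 0. At an unadjusted p under 0.05, 15 were higher and 0 lower, against 14.8% and 8.0% of all tested genes. MCM6, a subunit of the replicative helicase, had 46.7 and 51.3 FPKM in knockdown libraries, against 24.02 and 25.3 FPKM in control libraries, a log2 difference of 0.96 with a limma adjusted p of 0.0655 (Benjamini-Hochberg). CCNE2, cyclin E2, differed by 1.03, MCM2 by 0.45 and UNG, a uracil DNA glycosylase, by 0.48. Whether the histone differences go with the S phase genes was not tested.

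All 10 genes of the general poly(A) site machinery were above 0, against 61.4% of all tested genes, with a median of 0.16, but 8 to 10 under the other scalings. None passed an unadjusted p of 0.05 in limma, and RBBP6, NUDT21, CLP1 and PAPOLA, which act in cleavage and tail addition, differed by 0.38, 0.24, 0.33 and 0.25.

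**Figure D5:**
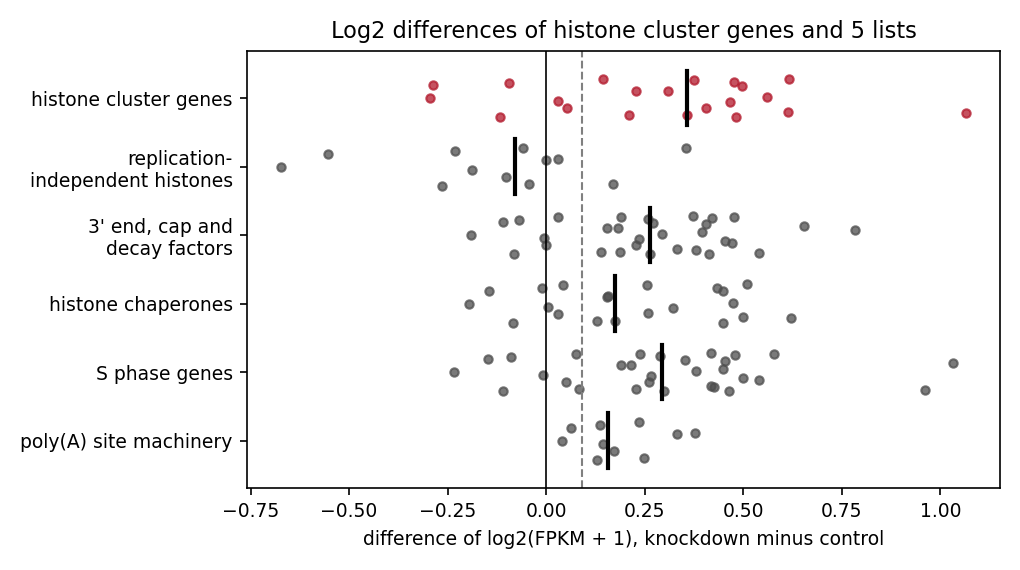
Difference of log2(FPKM + 1), knockdown minus control (x axis), for the 21 tested histone cluster genes in red and the tested genes of 5 lists in grey, with a black bar at each median and a dashed line at the median of all tested genes. The histone cluster median is at 0.36, the lists of 3' end factors and S phase genes are at 0.26 and 0.29, and the histones encoded outside the clusters are at -0.08.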

How the data were processed

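Messenger RNA from 2 knockdown and 2 control libraries of HaCaT cells, from 5 ug of total RNA each, was sequenced as read pairs of 150 bases from inserts of about 300 bases, per the labels' protocols. The submitters' processing notes name DESeq2, edgeR, StringTie 1.3.4d, HISAT2 2.0.4 and cutadapt 1.9, with no role given; the genome build, annotation and strand setting are not given by those notes or the labels. The authors deposited FPKM per gene and library, and also a fold and a log2 fold per gene, which are the authors' own comparison. The deposited values are not counts, and DESeq2 and edgeR were not run here.

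Whole reads could not be recovered: at the best depth tried, 28.1% to 39.8% of low values lay within 0.1 of a whole read, against 19.3% to 19.8% at the median depth. Depth is therefore unknown, and no counting interval is given. Each of the 4 value columns was matched to its library by name, and 0 columns belonged to no sample. Of 58825 gene IDs 58552 were in GENCODE 29 (GRCh38), which gave positions and models.

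FPKM were taken to log2 with a pseudocount of 1, which understates the change of low genes. Genes whose average reached 1 FPKM in either group entered a joint fit with limma 3.58.1 in R 4.3.3, with a trend, two-sided, adjusted by Benjamini-Hochberg at 0.05. Data were simulated for this comparison with 12411 genes, 200 of them changed. The changed genes were drawn only from those with a mean log2(FPKM + 1) above 2, and most tested members lay below that. On the simulated data the fit recovered 80.2% of changes of 2-fold and 98.2% of those of 4-fold, and 9.23% of its calls were false. The noise was normal, with each gene's spread as already pooled across genes by the fit. Spreads were therefore more alike than in the measured values, and recovery in these can be lower at any level. These rates do not describe members at low levels.

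All members past the filter are named; values of list genes are given for the 4 with the smallest p of each list, for WFDC21P and for those said to be chosen otherwise. The members and lists were chosen with earlier results of these data known. Pseudocounts, filters, scalings, fit options, a block for the replicate number and single libraries left out were tried as alternatives. Windows of 150 bases of each model were compared with all other GENCODE 29 transcripts.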

Additional observations from a re-analysis of the deposited data

How the results depend on the processing

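Over the alternatives of the fit, up to 15 for each gene that still passed the filter, 15 of the 21 tested members kept the sign of their log2 difference and 6 did not in at least 1. HIST1H4K was -0.0507 with median centring and -0.00175 with nuclear genes rescaled, and -0.21 to 0.27 with single libraries left out; HIST1H4J was -0.0261 with median centring and -0.19 to 0.30. Leaving out single libraries also gave -0.34 to 0.15 for HIST1H2BC, -0.34 to 0.11 for HIST1H2AC, -0.15 to 0.57 for HIST1H2BD and -0.31 to 1.3 for HIST2H2BD. With a pseudocount of 0.1 the difference was over 1.5 times larger in size in 12 members. Only the filter at 5 FPKM called a member, 1 of 4 tested (HIST1H2BK), with 4 above and 0 below 0. With no filter 59 members entered, 43 above and 16 below 0, with a median of 0.14. The log2 difference of the summed FPKM was 0.59, and 0.39 without HIST1H2BK, an alternative chosen after seeing the data.

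Over all genes, limma called 14 higher and 17 lower. It called 31 and 27 with the filter at 5 FPKM, 8 and 9 with no trend, and 5 and 4 with genes that share exons left out. Quantile normalization gave 40 lower. With no filter it called 0 and 0, with 3876 genes at an unadjusted p under 0.05. With the replicate number as a block it also called 0 and 0, with 3791 such genes; the numbers are not said to mark shared batches, and the replicate 1 deviations of the groups correlated at 0.124. With any single library left out it called 0 in each direction, with 1797 to 2251 genes at an unadjusted p under 0.05. The cause of these changes was not tested, beyond fewer genes, fewer samples or fewer residual degrees of freedom by construction.

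With 2 libraries a group and depth unknown, values under 1 FPKM are described only.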
